A study of Mus musculus with 3 samples.

Results

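TFAP2A binding in melanocytes was examined around the ligand, receptor, antagonist and effector genes of the Wnt pathway. The genes were chosen by a rule on their symbols, with earlier results of these data known. The rule took the Wnt, Fzd, Dkk1 to Dkk4 and Sfrp1, Sfrp2, Sfrp4 and Sfrp5 genes. It also took Lrp5, Lrp6, Tcf7, Tcf7l1, Tcf7l2, Lef1, Axin1, Axin2 and Ctnnb1. This gave 46 of the 21418 protein-coding genes on chromosomes 1 to 19 of the mouse build mm9. There were 19 Wnt ligands, 12 receptors and co-receptors (10 frizzled genes, Lrp5 and Lrp6), 8 secreted antagonists (4 Dkk and 4 Sfrp genes) and 7 intracellular and nuclear effectors.

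Wnt proteins are secreted signals that bind frizzled receptors and the co-receptors Lrp5 and Lrp6, which stops a complex built on Axin from marking beta-catenin (the product of Ctnnb1) for destruction, so that beta-catenin can join DNA-binding proteins of the TCF/LEF family and switch genes on. Dickkopf (Dkk) and secreted frizzled-related (Sfrp) proteins are extracellular antagonists. In the pigment cell lineage the pathway is known for directing neural crest cells towards the melanocyte fate.

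TFAP2A chromatin immunoprecipitation and sequencing (ChIP-seq) was carried out in melan-a cells, an immortalized melanocyte line from normal embryonic mouse skin with the genotype Cdkn2a tm1RDp/tm1RDp, which received no treatment and were grown with a phorbol ester and cholera toxin. The series held 3 samples, namely 2 TFAP2A ChIP replicates from separate experiments and 1 input of unprecipitated chromatin, all from this line and genotype. Each ChIP replicate has its own list of peaks, with 18528 peaks in replicate 1 and 21459 in replicate 2. No list of the input was used here. The number of reads behind a list was unknown, 1 cell line stands for all melanocytes, and peak lists carry no expression values with which to check the cell type. No test was run, because the peaks and genes of 2 lists are not replicates.

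A peak was called shared when peaks of the replicates overlapped by at least 1 bp. A gene was called proximally bound when both summits (the points of highest signal) of such a pair lay from 5 kb upstream to 1 kb downstream of one of its transcription start sites (TSSs). It was called bound in the wide window when they lay in the gene body or within 50 kb of it. Fold enrichment is the ratio of ChIP signal to background in the deposited lists.

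Of the 46 genes, 3 were proximally bound, namely Fzd7, Lef1 and Wnt5b (6.52%, against 17.4% of all protein-coding genes), and 32 had a shared peak in the wide window (69.6%, against 59.9%). The wide window contains the proximal one, so its count cannot be the lower and is not a count of distal binding alone. Both backgrounds lay within the counting error of 46 genes. The strongest of these 69 shared regions lay in an intron of Tcf7l1, upstream of Fzd7 and beyond the 3′ ends of Wnt9b and Fzd3, with fold enrichments near 13 to 17. No Sfrp or Dkk gene was proximally bound, and 10 of the 46 genes, Wnt1, Wnt5a and Dkk1 among them, had no summit of either replicate in the wide window (21.7%, 10.9 to 36.4, against 31.9% of all genes).

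The sequences at the summits of some of these regions are printed below. Each is 101 bases centred on the replicate 1 summit, on the plus strand of mm9. For Lef1, where that window meets an untranslated region, 30 bases around the match nearest to the summit are shown instead. Capitals mark matches to GCCNNNGG, the consensus of TFAP2 proteins, on either strand. The first 5 are the regions of highest fold enrichment and each holds the consensus. Of the 12 regions of highest mean 8 held it, and of all 69 regions 52.2%, against 57.1% of all shared regions. The last 3 are regions at the proximally bound genes, and of these the Lef1 one alone holds the consensus.

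Tcf7l1 intron, chr6:72623513-72623613: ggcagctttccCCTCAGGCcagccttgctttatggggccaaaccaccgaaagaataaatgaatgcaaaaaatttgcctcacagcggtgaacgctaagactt

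Fzd7 upstream, chr1:59506437-59506537: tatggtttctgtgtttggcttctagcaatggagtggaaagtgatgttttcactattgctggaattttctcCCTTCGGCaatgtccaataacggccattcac

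Wnt9b downstream, chr11:103550420-103550520: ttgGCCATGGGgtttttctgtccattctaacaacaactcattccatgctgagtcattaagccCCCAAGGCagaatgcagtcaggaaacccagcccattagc

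Fzd3 downstream, chr14:65773676-65773776: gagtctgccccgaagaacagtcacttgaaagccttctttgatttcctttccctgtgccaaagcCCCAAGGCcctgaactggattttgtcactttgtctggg

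Wnt16 upstream, chr6:22230425-22230525: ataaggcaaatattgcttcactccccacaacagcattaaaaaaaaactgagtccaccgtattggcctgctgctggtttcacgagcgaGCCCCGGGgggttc

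Lef1 proximal, chr3:130814125-130814154: tctcagaggcGCCGGCGGCtgccgccctcg

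Fzd7 proximal, chr1:59538607-59538707: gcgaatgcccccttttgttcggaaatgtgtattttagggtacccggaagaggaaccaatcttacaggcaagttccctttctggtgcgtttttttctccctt

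Wnt5b proximal, chr6:119402149-119402249: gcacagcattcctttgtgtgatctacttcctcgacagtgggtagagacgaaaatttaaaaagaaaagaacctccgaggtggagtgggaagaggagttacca

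Proximal binding was then set against all genes. The 3 proximally bound genes were 6.52% of the 46 (exact 95% binomial interval 1.37 to 17.9), against 17.4% of all protein-coding genes, so the background lay within the counting error of 46 genes. In the replicate 1 list on its own 3 of the 46 had a proximal summit (6.52%, 1.37 to 17.9), against 19% of all genes, which lay above the interval. In the replicate 2 list 5 had one (10.9%, 3.62 to 23.6), against 21.4%, which lay within it. The genes that replicate 2 added were Fzd9 and Axin2. When only the upper 50% of each list by fold enrichment was kept, none of the 46 was proximally bound, against 6.44% of all genes. By role, 1 of 19 ligands, 1 of 12 receptors and co-receptors, 0 of 8 antagonists and 1 of 7 effectors were proximally bound. For the antagonists, a count of 0 of 8 is compatible with a share of up to 36.9% by the exact interval. These intervals cover counting error over genes only.

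Fzd7 (ENSMUSG00000041075.7, chromosome 1 from 59538991 to 59543791, plus strand) encodes a frizzled receptor and was the most densely bound of the 46 genes. It had 2 proximal shared regions. The summit of the first was 334 bp upstream of the TSS in replicate 1 and 315 bp upstream in replicate 2, with fold enrichments of 3.52 and 4.11. The second lay 1109 bp and 1156 bp upstream, with 2.58 and 3.06, the lowest mean of the 69 regions. Replicate 2 alone had a further peak in the exon, 118 bp downstream of the closest TSS, with 3.61. Its summit was 0.15 kb from the 5′ end of the gene, the TSS used for the 2 shared regions. All proximal values of this gene lay under the median of their own list, which was 5.56 in replicate 1 and 5.75 in replicate 2.

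Lef1 (ENSMUSG00000027985.8, chromosome 3 from 130813389 to 130927274, plus strand) encodes the LEF member of the TCF/LEF family. Its proximal region, in an untranslated part of an exon, had summits 762 bp and 809 bp downstream of the TSS that 3 of its 6 transcripts share, with fold enrichments of 4.06 in replicate 1 and 6.29 in replicate 2. The window around the replicate 1 summit was 75.2% G and C and held 4 matches to the TFAP2 consensus, more than at any other of the 69 regions. Those 4 matches were 2 overlapping pairs, because matches were counted by start position on either strand. A stronger shared region followed 2.81 kb downstream of the closest TSS, outside the proximal window, with 8.58 and 8.08 and 2 matches. Between them replicate 2 alone had a peak 732 bp upstream of an internal TSS, with 3.87 and 3 matches. Both shared regions of Lef1 lay within 5.14 kb of the 5′ end of a gene 114 kb long.

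Wnt5b (ENSMUSG00000030170.7, chromosome 6 from 119382549 to 119494336, minus strand) encodes a ligand known mainly for signalling without beta-catenin. Its proximal region had summits 2795 bp and 2809 bp upstream of an internal TSS used by 1 of 3 annotated transcripts, which starts 94.9 kb into the gene model, with fold enrichments of 4.95 and 6.17. With only the 5′ end of each gene as its TSS, Wnt5b dropped out and 2 of the 46 genes were proximally bound. A stronger region in the same gene model, from 119432015 to 119432508 with 11.1 and 10.8, fell in an untranslated exon of Fbxl14, a gene that lies within an intron of Wnt5b. The replicates differed by less at this region than at the proximal one. Another lay at the promoter of Fbxl14 itself, with 3.28 and 3.87, so only the weaker proximal region of Wnt5b was closest to a Wnt5b TSS.

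Several other genes had a shared region just outside the proximal window. The closest was at Lrp5, 1.95 kb downstream of the TSS, with fold enrichments of 5.42 and 5.03. Upstream, the nearest shared regions of Sfrp5, Fzd9, Wnt16, Fzd1 and Wnt9b lay 7.41, 7.56, 7.75, 8.72 and 9.11 kb from the TSS. In all, 9 of the 46 genes (19.6%, 9.36 to 33.9) had a shared region within 10 kb of a TSS, against 26.9% of all genes. Fzd9 and Axin2, the latter a feedback inhibitor and widely used readout of the pathway, had peaks at the TSS itself in replicate 2 alone. These lay 88 bp upstream with 3.86 at Fzd9 and 94 bp downstream with 3.29 at Axin2. All 4 proximal peaks that were found in replicate 2 only, at Fzd7, Fzd9, Axin2 and Lef1, had fold enrichments between 3.29 and 3.87.

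**Figure D1:**
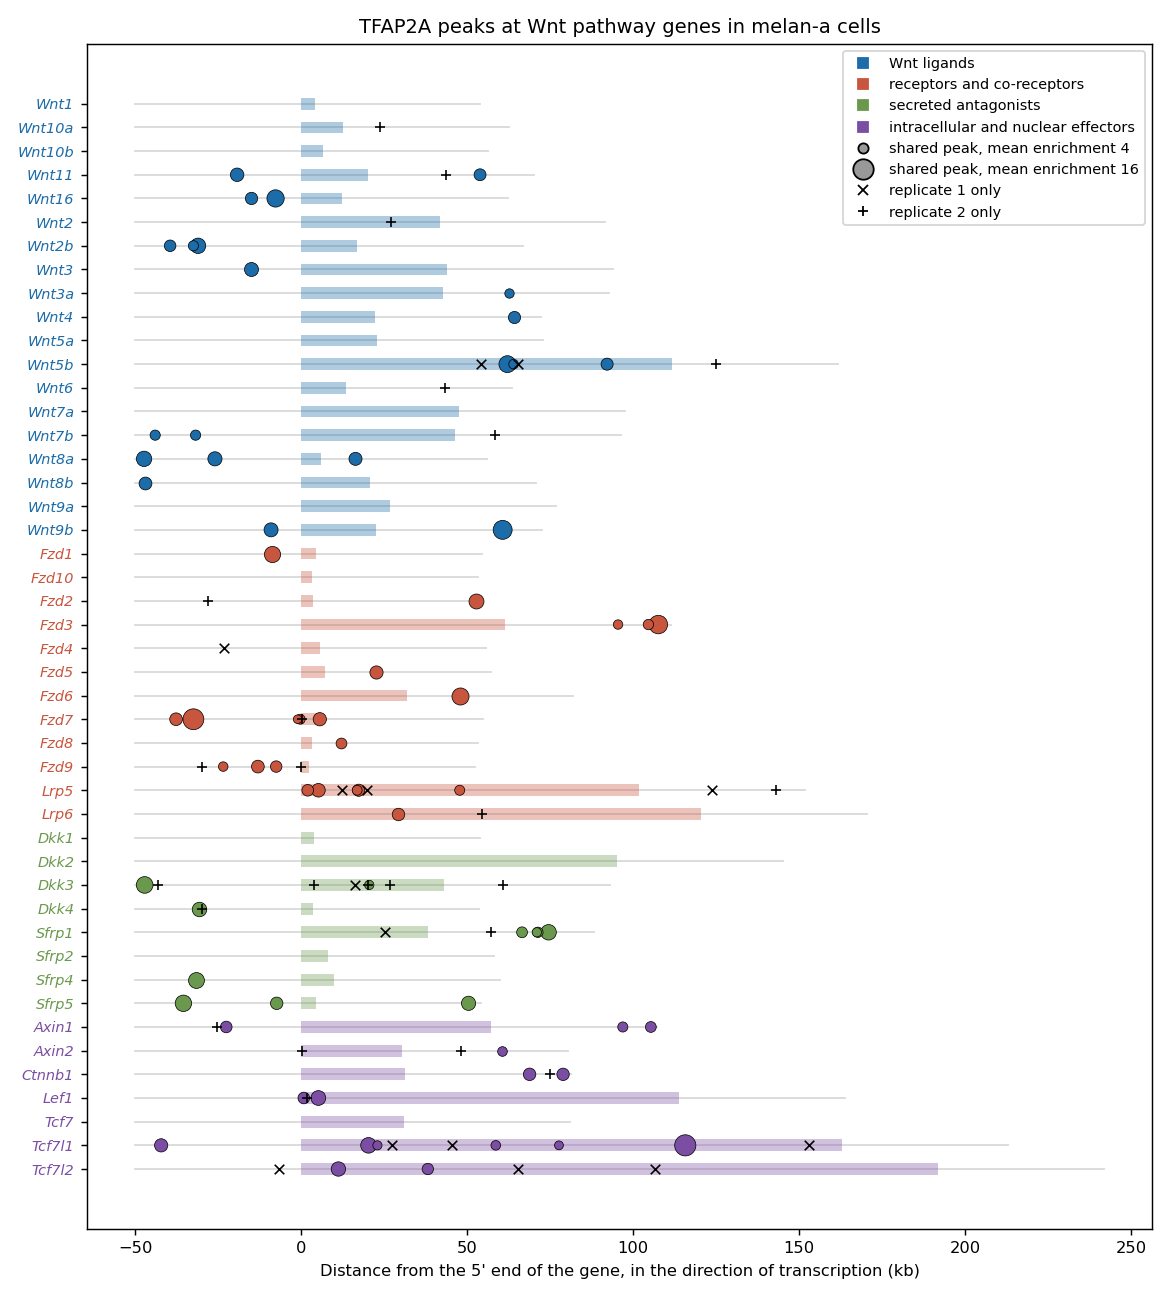
Each row is 1 of the 46 genes, with its gene body as a bar and a line to 50 kb on either side, and the horizontal axis gives the distance from the 5′ end of the gene in kb. Circles are shared TFAP2A peaks at the replicate 1 summit with area in proportion to mean fold enrichment, crosses are peaks of replicate 1 only and plus signs peaks of replicate 2 only. Most circles lie away from position 0, and 10 rows carry no symbol.

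In the wide window, 32 of the 46 genes had a shared peak (69.6%, exact interval 54.2 to 82.3), against 59.9% of all protein-coding genes, which again lay within counting error. In the replicate 1 list 33 genes had a summit there (71.7%, against 62.7% of all genes) and in the replicate 2 list 35 (76.1%, against 66%), and both backgrounds lay within the intervals of the 46 genes. By role the 32 genes with a shared peak were 11 of 19 ligands, 10 of 12 receptors and co-receptors, 5 of 8 antagonists and 6 of 7 effectors. The intervals of all 4 roles overlapped and held the background. Within the gene body alone 7 of the 46 had a shared peak (15.2%, 6.34 to 28.9), against 21.3% of all genes. These 7 were Wnt5b, Lrp5, Lrp6, Dkk3, Lef1, Tcf7l1 and Tcf7l2.

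**Figure D2:**
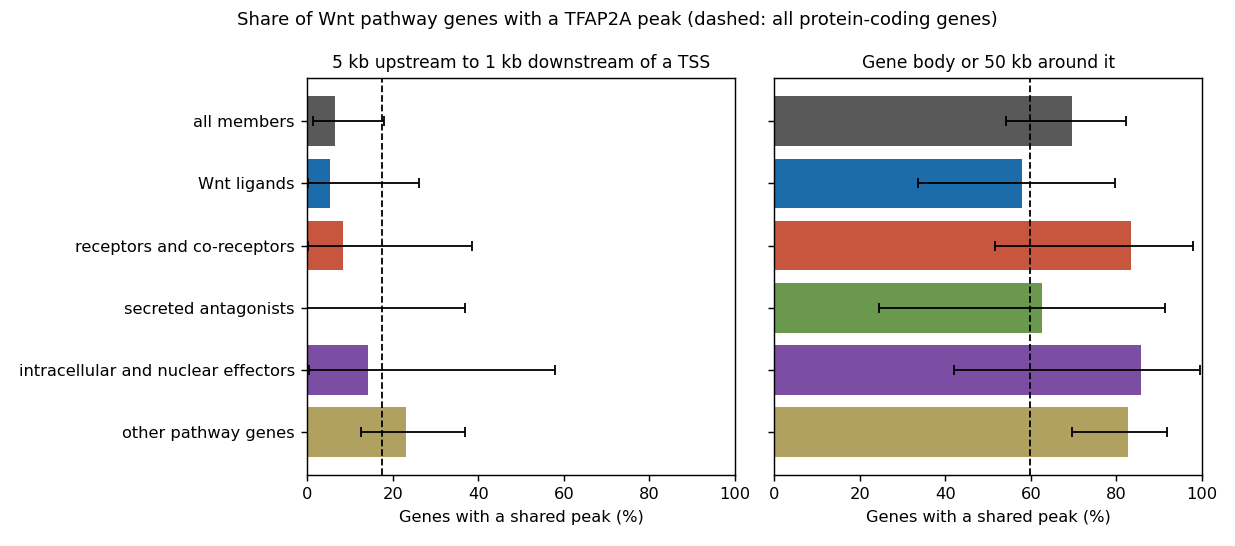
Bars give the percentage of genes with a shared TFAP2A peak in the proximal window (left) and in the wide window (right), with exact 95% binomial intervals, for all 46 genes, for their 4 roles and for 52 other genes of the pathway. The dashed line is the percentage over all protein-coding genes, 17.4% on the left and 59.9% on the right.

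Wide windows grow with gene length, and the 46 genes had a median length of 22.3 kb against 15.5 kb for all genes. Per 100 kb of window the median was 0.921 shared regions for these genes and 0.802 for all genes, with means of 1.10 and 1.12. With overlapping windows merged, the windows of the 46 genes held 11.6 shared regions per Mb and those of all genes 8.81, so the comparison depended on how density was counted. Fzd7 had the highest density, 4.77 per 100 kb, followed by Fzd9, Sfrp1, Sfrp5 and Wnt8a with 2.93, 2.90, 2.88 and 2.83. Of the 46 genes, 13 had 1 shared region (28.3%, against 22.6% of all genes), 8 had 2 (17.4%, against 15.0%) and 7 had 3 (15.2%, against 9.24%). Fzd7, Lrp5, Sfrp1 and Tcf7l1 had 4 or more (8.70%, against 13.1%), and the share of all genes lay within the interval of the 46 in each class. The windows of the 46 genes held 83 peaks of replicate 1 and 92 of replicate 2, of which 14 and 23 were found in that replicate only (16.9% and 25.0%, against 13.0% and 24.0% of all peaks on chromosomes 1 to 19).

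Among the ligands, the strongest region belonged to the window of Wnt9b (chromosome 11 from 103588678 to 103611135, minus strand), a ligand with roles in kidney and facial development. It ran from 103550010 to 103550845, 60.7 kb downstream of the Wnt9b TSS, and had fold enrichments of 15.8 in replicate 1 and 11.7 in replicate 2. The closest TSS was that of Gosr2, 8.54 kb away, so its place in the wide window does not tie it to Wnt9b. It held 2 TFAP2 matches, an AP-1 match at its summit and a TEAD match beside it. Between Wnt9b and its neighbour Wnt3 lay the only region in the windows of 2 of the 46 genes, 9.11 kb upstream of Wnt9b and 15.2 kb upstream of Wnt3, with 6.55 and 8.46.

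Wnt16 had a region 7.75 kb upstream of its TSS, from 22229995 to 22230786 on chromosome 6, with 13.1 and 9.74, and a second 15.0 kb upstream with 5.55 and 6.10. Wnt2b had 3 regions, all upstream, of which the strongest lay 31.1 kb from the TSS with 9.64 and 8.48. Wnt11 had 2, at 19.3 kb upstream with 7.87 and 6.05 and at 50.1 kb downstream of the closest TSS with 4.66 and 6.22. Wnt8a on chromosome 18 had 3, with means from 6.51 to 9.02, and the closest gene to 2 of them was Fam13b. Wnt7b, Wnt8b and Wnt4 had mean fold enrichments of at most 6.28. The region of Wnt8b was closer to Scd1 (38.8 kb) and that of Wnt4 to Cdc42 (5.34 kb). The region counted for Wnt3a lay on the TSS of Arf1, 62.5 kb from that of Wnt3a, with 3.60 and 3.15.

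The other 8 ligands had no shared region in the wide window. For Wnt1 and Wnt10b, which lie next to each other and of which Wnt1 marks the dorsal neural tube that gives rise to the neural crest, and for Wnt5a, Wnt7a and Wnt9a, neither list had a summit there. The nearest shared regions were 80.6 kb from the TSS of Wnt1, 82.2 kb from that of Wnt10b, 78.7 kb from that of Wnt9a, 104 kb from that of Wnt7a and 129 kb from that of Wnt5a. Wnt6 and Wnt10a, also neighbours, shared 1 peak of replicate 2 only, with 3.57, and their nearest shared regions were 286 and 306 kb away. Wnt2 had 1 intronic peak of replicate 2 only, with 6.64.

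Among the receptors the strongest region, at Fzd7, ran from 59506165 to 59506887 on chromosome 1, 32.5 kb upstream of the TSS, with fold enrichments of 17.9 in replicate 1 and 15.3 in replicate 2. Fzd7 had the closest TSS, and of all 15797 shared regions on chromosomes 1 to 19, 95.2% had a lower mean. Its 5 regions spanned means from 2.82 to 16.6, the proximal pair being the lowest. A region 5.55 kb downstream of the closest TSS, past the end of the gene, had 6.67 and 6.78. Another, 37.7 kb upstream, had 5.60 and 6.73. The distal values at this gene exceeded both proximal ones in each replicate.

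Fzd3, a receptor known for planar polarity and axon growth, had 3 regions beyond its 3′ end, the strongest from 65773329 to 65774075 on chromosome 14 with 13.9 and 12.4. This region lay 73.2 kb downstream of the closest Fzd3 TSS and 56.8 kb upstream of Extl3. It held the only TCF/LEF match among the 69 regions, 12 bp to the left of the summit (ctttgat in the sequence printed above). Fzd6 had a region 47.7 kb downstream, closer to Cthrc1 (22.9 kb), with 11.1 in replicate 1 and 11.2 in replicate 2, and Fzd1 one 8.72 kb upstream with 11.0 and 9.08. Neither held a TFAP2 match. At Fzd9 the 3 shared regions lay 7.56, 13.1 and 23.5 kb upstream, with means of 5.02, 6.22 and 3.47, and the nearer 2 held 3 matches each. Fzd2, Fzd5 and Fzd8 had 1 region each, with means of 8.58, 6.67 and 4.47, and the closest TSS to that of Fzd2 was of Gm1564, 6.66 kb away. Fzd4 had only a peak of replicate 1, with 6.65, and Fzd10 had none.

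The co-receptors differed from each other in number. Lrp5 (chromosome 19 from 3584825 to 3686564, minus strand) had 8 summits in replicate 1, 6 in replicate 2 and 5 shared regions, all in introns. They lay 1.95, 5.17, 16.8, 17.3 and 47.7 kb downstream of the TSS, and the strongest, at 5.17 kb, had 7.31 and 6.90 with 3 TFAP2 matches. Lrp6, which is of similar length, had 1 shared region, in an intron 29.1 kb from the closest TSS, with 6.22 and 5.73 and no match.

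Among the antagonists, Sfrp1 had 4 shared regions and all lay past its 3′ end, between 66.5 and 74.5 kb from the TSS, with 8.83 and 9.51 at the strongest and means from 3.30 to 4.47 at the others. Sfrp5 had regions 35.5 kb and 7.41 kb upstream and 50.4 kb downstream, the last closer to Marveld1 (4.46 kb). The first was the strongest, with 9.26 and 11.4, and the closest gene to it was Golga7b. Sfrp4 had 1 region 31.9 kb upstream with 9.45 and 9.82, closest to Epdr1. Sfrp2 had no summit in either list, and its nearest shared region, at 522 kb, was the most distant of all 46 genes.

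Dkk3, a divergent Dickkopf protein, had 2 shared regions. The stronger lay 47.2 kb upstream, closer to Mical2, and had 8.57 in replicate 1 and 12.7 in replicate 2. The other was intronic with 2.87 and 3.74. Replicate 2 had 5 further peaks in the wide window of Dkk3 that replicate 1 lacked, including one 3.72 kb inside the gene with 5.12, and replicate 1 had 1 that replicate 2 lacked. The region counted for Dkk4 lay at the promoter of Vdac3 and had 10.4 and 5.69, with summits 168 bp apart, so the replicates placed and scaled it differently. Dkk1, which blocks the co-receptors and is known to reduce pigmentation of palm and sole skin, and Dkk2 had no summit of either list, with nearest shared regions 219 and 285 kb from the TSS.

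The effectors were led by Tcf7l1 (ENSMUSG00000055799.6, chromosome 6 from 72576372 to 72739248, minus strand), the TCF member known mainly as a repressor. It had 9 summits in replicate 1, 6 in replicate 2 and 6 shared regions, of which 5 were intronic. The strongest of all 69 regions ran from 72623121 to 72623926, with its summit at the same base in both replicates and fold enrichments of 17.8 and 16.5. Over all shared regions 95.7% had a lower mean. It lay 116 kb into the gene and held 1 TFAP2 match. The closest TSS was that of Gm15401, 37.3 kb away, and the closest of Tcf7l1 was 43.3 kb away. A second intronic region 19.3 kb from a TSS had 9.30 and 9.33, and the other 4 had means from 3.00 to 6.71. Replicate 1 alone had 3 more intronic peaks, with 3.04, 3.05 and 4.28.

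Tcf7l2, the gene of this family most often studied in gut and metabolism, had 2 shared intronic regions, at 10.1 kb from a TSS with 9.07 and 6.75 and at 37.1 kb with 5.91 and 3.97. Both were higher in replicate 1, and 3 further peaks were found in replicate 1 only. Tcf7, the remaining member, had no summit in either list within 50 kb, and its nearest shared region was 84.0 kb upstream. The TCF/LEF genes thus ranged from 6 shared regions at Tcf7l1 to none at Tcf7.

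The regions of Ctnnb1 and of Axin1 and Axin2, from the complex that marks beta-catenin for destruction, had means of at most 5.96. Ctnnb1 had 2, both past its 3′ end and 41.1 and 51.2 kb from the closest Ctnnb1 TSS (the latter closer to Ulk4, at 36.8 kb), with 5.80 and 6.12 and with 4.61 and 7.11. Axin1, the scaffold of the complex, had 3 with means between 3.92 and 5.14, of which 1 lay at a promoter of Tmem8 and 1 at a promoter of Itfg3. Axin2 had 1, 37.2 kb downstream of the closest TSS, with 2.72 in replicate 1 and 4.47 in replicate 2.

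Across the 69 shared regions the median fold enrichment was 5.60 in replicate 1 and 6.05 in replicate 2, which average 5.82 ± 0.319 (SD, n = 2). All shared regions had 5.91 and 6.41, averaging 6.16 ± 0.351 (SD, n = 2). The median was thus lower around the Wnt pathway genes in each of the 2 lists, by 0.314 in replicate 1 and 0.360 in replicate 2, a difference that was not tested. By role the mean of the replicate medians was 5.93 ± 0.375 for ligands, 5.59 ± 0.0455 for receptors, 7.04 ± 1.73 for antagonists and 5.34 ± 0.530 for effectors (SD, n = 2). The higher value of the antagonists lay within their own spread of the others. By the same measure the 4 proximal regions had 4.46 ± 0.952 and the other 65 had 5.91 ± 0.188 (SD, n = 2). Regions at promoters were also lower over the whole list, with 5.11 ± 0.345 (SD, n = 2) at all 4065 of them. In the upper 10% of all shared regions were 4 of the 69 (5.80%, 1.60 to 14.2, an interval that holds 10%), and this class began at a mean of 12.8. They were the strongest regions of Tcf7l1, Fzd7, Wnt9b and Fzd3.

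**Figure D3:**
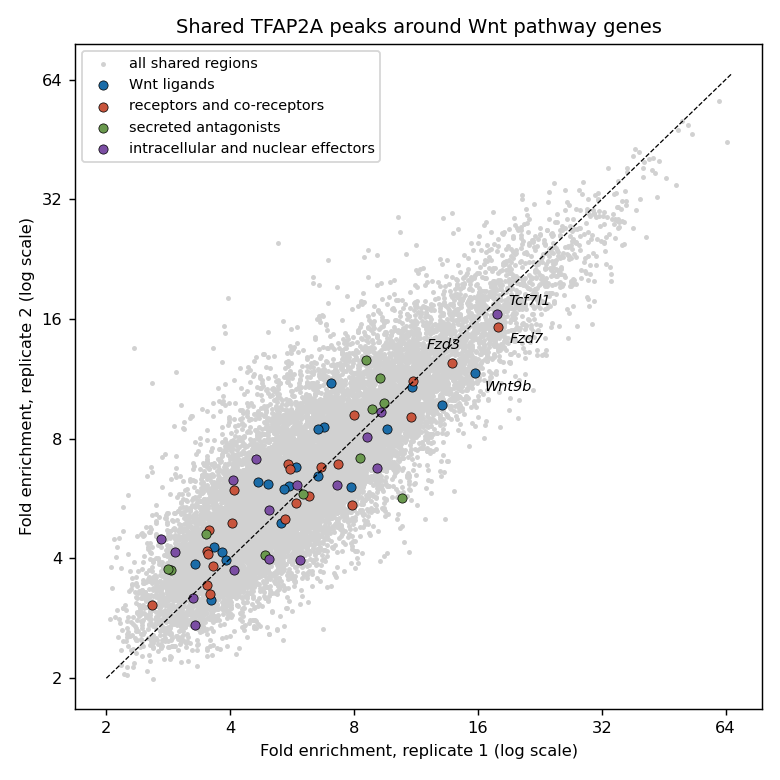
Fold enrichment in replicate 1 and replicate 2 (both axes on a log scale) for all 15797 shared regions in grey and for the 69 around Wnt pathway genes in colour by role, with the line of equal values dashed. The coloured points lie within the grey cloud and follow the line, and Tcf7l1 and Fzd7 stand highest.

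The replicates matched at these regions to a degree like that of the whole list. Summits lay a median of 24 bp apart, the same as over all shared regions, and 67 of 69 pairs lay within 100 bp (97.1%, 89.9 to 99.6, against 94.3%). The exceptions were the Dkk4 region and a weak Sfrp1 region with summits 380 bp apart. Fold enrichments were within 1.5-fold of each other at 64 of the 69 (92.8%, 83.9 to 97.6, against 88.0%). Replicate 2 was higher at 38 of the 69 (55.1%), against 58.0% over all shared regions.

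Position was also set against all shared regions. Of the 69, 36 lay between genes (52.2%, 39.8 to 64.4), against 35.5% of all shared regions, and 9 lay in the promoter window of any protein-coding gene (13.0%, 6.14 to 23.3), against 25.7%. In introns lay 22 (31.9%, 21.2 to 44.2), against 37.0%. The backgrounds of intergenic and promoter regions lay outside these intervals and that of introns within. The windows were drawn around chosen genes, so these shares also depend on what else lies within 50 kb of them. Inside the 46 genes themselves lay 19 regions, 17 in introns and 2 in exons of Lef1. For 46 regions the closest protein-coding TSS belonged to one of the 46 genes, and for 23 it belonged to another gene.

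The TFAP2 consensus GCCNNNGG lay within 50 bp of the summit, on either strand, in 36 of the 69 regions (52.2%, 39.8 to 64.4), against 57.1% of all shared regions. In windows of the same length 400 bp to either side it was present in 18 of 138 (13.0%), against 15.3% around all shared regions. A single match was found in 19 regions, 2 in 11, 3 in 5 and 4 in 1. Overlapping matches were counted separately, so 1 stretch of bases could give more than 1 match. The consensus was present in 8 of the 12 regions of highest mean and in 1 of the 4 proximal ones. By role it was in 12 of 20 regions of ligands, 8 of 22 of receptors, 6 of 11 of antagonists and 10 of 16 of effectors.

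Sites of other factors were counted in the same windows. The TCF/LEF string CTTTGAT, through which the pathway acts on its own targets, was in 1 of 69 regions (1.45%, 0.0367 to 7.81), against 1.27% of all shared regions and 1.48% of their flanks. SOX strings (ACAANGG) were in 6 (8.70%, 3.26 to 18.0), against 7.08%, and TEAD strings (GGAATG) in 5 (7.25%, 2.39 to 16.1), against 10.5%. AP-1 strings (TGANTCA) were in 2, against 8.29%, an interval of 0.353 to 10.1% that held the background. The E-box CACGTG was in 1 (1.45%, 0.0367 to 7.81), against 1.79%, and the MITF M-box TCATGTG in none, with an upper bound of 5.21%, against 2.01%. The control string CGGNNNCG was in 3 (4.35%, 0.906 to 12.2), against 5.94%. The regions with SOX strings were those of Tcf7l1 (42.2 kb upstream), Wnt16, Wnt5b (proximal), Tcf7l2 and Wnt7b (both its regions). A match is a string of letters and does not show that a factor was bound.

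**Figure D4:**
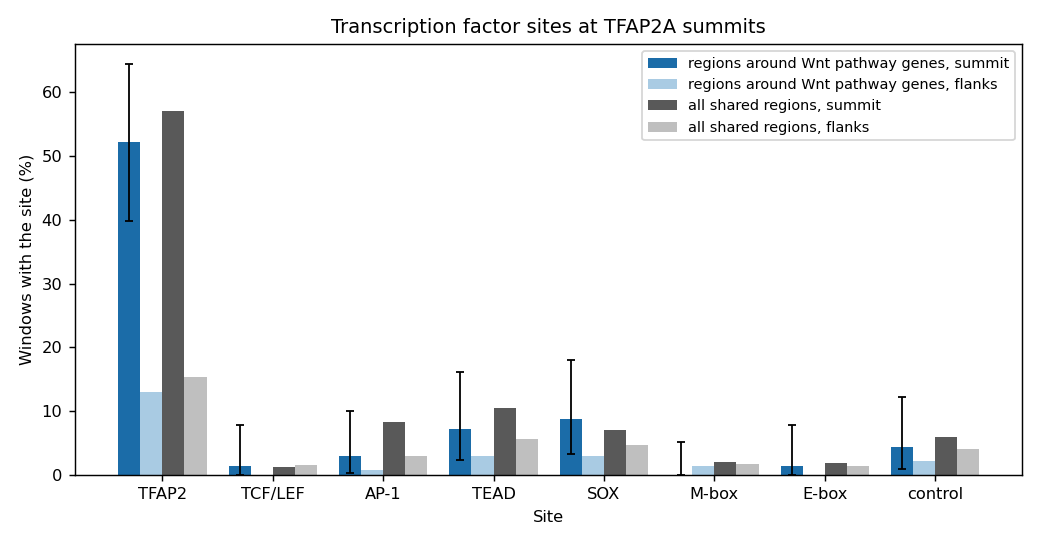
Percentage of 101 bp windows that hold each site, on either strand, at the summits of the 69 regions around Wnt pathway genes (dark blue, with exact 95% binomial intervals), in their flanks (light blue), at the summits of all 15797 shared regions (dark grey) and in their flanks (light grey). The TFAP2 consensus stands above its flanks in both sets, at 52.2% and 57.1%.

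A further 52 genes of the pathway, which the symbol rule did not take, were described in the same way. They were a list chosen by hand with earlier results of these data known, and not all the rest of the pathway. Of these, 12 were proximally bound (23.1%, exact interval 12.5 to 36.8), an interval that held the 17.4% of all genes, and 43 had a shared peak in the wide window (82.7%, 69.7 to 91.8), an interval above the 59.9% of all genes that takes no account of gene length. The interval of the 52 overlapped that of the 46 genes in both windows. By class, proximal binding was found at 1 of 9 genes of the R-spondin axis, which amplifies Wnt signals, 0 of 6 alternative receptors, 1 of 7 genes of secretion and extracellular control, 5 of 15 cytoplasmic genes, 3 of 8 nuclear genes and 2 of 7 planar polarity genes.

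The strongest proximal regions of these 52 exceeded any at the 46 genes. Btrc, the ubiquitin ligase subunit that recognises marked beta-catenin, had 24.7 in replicate 1 and 19.6 in replicate 2 at 4845 bp upstream. Tle1, a co-repressor that TCF proteins recruit, had 24.1 and 18.6 at 4861 bp upstream, so both lay just inside the edge of the proximal window. Dvl3, which relays the signal from frizzled receptors, had 11.0 and 11.9 at 924 bp downstream of a TSS. Tle3, a co-repressor of the same family as Tle1, had 9.74 and 8.48 at 4398 bp upstream. In each of the 4, both replicates exceeded the 6.29 that was the highest proximal value in either replicate among Fzd7, Lef1 and Wnt5b.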

How the data were processed

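TFAP2A ChIP-seq of melan-a cells was deposited by the authors as 1 peak list per ChIP replicate, not pooled. The submitters' processing notes name BWA, MACS 1.4.2 and the build mm9, without roles or settings. The lists have summits and q-values in the layout of a later MACS, so the version behind the fold enrichments and q-values is uncertain. The annotation used here was GENCODE mouse version M1 on the same build (0 peaks ran past a chromosome end). The deposited fold enrichment is a ratio given by the authors' peak caller, the deposited −log10 p-value and −log10 q-value had minima of 5.05 and 2.64 in replicate 1 and of 5.06 and 2.64 in replicate 2, and the deposited score, which was not used, was a rounded-down multiple of the −log10 p-value at every peak. Read depth was unknown. A peak outside these limits is absent from the lists, which does not show absence of binding.

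Peaks were paired by an overlap of at least 1 bp, and each replicate 1 peak kept its largest overlap. Genes were matched by symbol, and TSSs were those of all annotated transcripts. Intervals are exact Clopper-Pearson 95% intervals over genes or regions and do not cover variation between cultures. The rule for naming took all 46 genes by role, with full values for those proximally bound and for the 12 regions of highest mean enrichment, and the 4 strongest of the other pathway genes. Genes, lists and alternatives were chosen with earlier results of these data known. Alternatives were stricter peak sets, other windows, TSS choices, overlaps and consensus settings, and each replicate alone. Scripts in Python 3.11.15 (numpy 2.4.6, scipy 1.17.1, pysam 0.24.0, matplotlib 3.10.9) with samtools 1.23.1 were tested on planted peaks and sites.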

Additional observations from a re-analysis of the deposited data

How the results depend on the processing

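The proximal count of 3 genes (6.52%, against 17.4% of all genes) was 3 to 5 when either replicate was left out (6.52% to 10.9%, against 19% to 21.4%), 0 in the upper 50% of each list by fold enrichment (against 6.44%), 2 within 1 kb of a TSS (4.35%, against 13.1%) or with only 5′ ends (4.35%, against 14.2%) and 3 under the others. The share of all genes lay within the interval of the 46 under each of these except with replicate 1 alone, where it lay above. The wide count of 32 genes (69.6%, against 59.9% of all genes) was 33 to 35 with a replicate left out (71.7% to 76.1%, against 62.7% to 66%), 22 in the upper 50% of each list (47.8%, against 38.5%) and 36 with 100 kb to each side (78.3%, against 73.2%). The order turned with narrower windows, at 14 genes with 10 kb (30.4%, against 35.7%) and 7 in the gene body only (15.2%, against 21.3%), and in each case the share of all genes lay within the interval of the 46. The median fold enrichment of 5.82 was 5.21 to 5.31 with a replicate left out, where peaks of 1 list only entered and the values were those of 1 replicate, and 8.70 in the upper 50% of each list. The TFAP2 consensus, in 52.2% of regions, was in 50.6% to 55.4% with a replicate left out, 63.3% in the upper 50% of each list, 18.8% as GCCNNNGGC and 65.2% within 100 bp of the summit. The median density of 0.921 regions per 100 kb was 0.940 to 0.945 with a replicate left out and 0.981 with 100 kb to each side. No paired analysis was possible because only 1 group has lists used here, so no groups could be compared, and no result comes from a test. Unknown depth limits what the absence of a peak can show.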
